A study of Homo sapiens with 4 samples.

Results

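Long intergenic non-coding RNAs (lincRNAs) were measured in AGS, an established cell line from a human gastric adenocarcinoma. The genes described here are those annotated as lincRNA in the deposited tables and chosen by a count minimum, namely a sum of at least 200 counts in library 2 of both groups together. Small nucleolar RNA host genes were left out by their deposited names, namely those starting with SNHG, and GAS5, ZFAS1 and DANCR. LINC02001, now named SNHG30, therefore stayed in the set (log2 fold change of FGF2 over NC 0.37). This gave 109 of the 7629 lincRNA genes and of the 51103 genes in the tables, and 5 further lincRNA genes met the count minimum but were left out by name. The minimum used levels summed over both groups. A gene at a high level in only one group could therefore enter through that group.

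One group held 2 libraries of AGS cells treated with 20 ng/mL recombinant human FGF2, a growth factor known to act through receptor tyrosine kinases and ERK, and harvested at 24 h. The other held 2 libraries of AGS cells, also at 24 h, labelled NC, which the labels leave unexplained. Their treatment text also speaks of FGF2, so the treatment of the NC cells is unknown here. The cells are 1 line, the RNA was polyadenylated RNA, and the library kit leaves strands unmarked, so reads of a gene and of one across from it on the other strand mix. The series asks which genes of gastric cancer cells respond to FGF2, with ribosome biogenesis named in its title. The libraries held 13790335 and 27598608 counts for FGF2, against 14073340 and 27325697 counts for NC. Library 1 exceeded library 2 at 2 of 22043 genes in the FGF2 group and at 2 of 22485 genes in the NC group, and at 0 of the 109 lincRNA genes. Between the libraries of a group the chi-square per gene of 10 to 1000 counts was 0.771 ± 0.0121 (SE) for FGF2 and 0.764 ± 0.0116 for NC, below the value of 1 that separate reads give, as if library 2 contained library 1. Libraries 1 and 2 of a group therefore differed by less than separate reads would, and they were counted as 1 sample (n = 1 per group). No difference between the groups has a test by replicates. In place of a test, a gene is called higher or lower here by disjoint read sets, namely library 1 and the other reads of library 2. Both read sets of FGF2 must lie beyond both read sets of NC by at least 1.5-fold or, as a weaker call, 1.2-fold. Within a group these disjoint read sets differed by more than sampling noise. Over the 11000 genes with the same count minimum the chi-square per gene was 4.52 ± 0.187 (SE) for FGF2 and 3.65 ± 0.144 for NC.

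Keratin genes marked the cells as epithelial, while other epithelial genes were low. KRT8 stood at 190.6 FPKM and KRT18 at 199.1 FPKM in FGF2 library 2, against 270.3 and 193.0 FPKM in NC library 2. KRT19 was at 47.6 FPKM in FGF2 and 27.3 FPKM in NC, and was called higher by 1.5-fold. EPCAM, which encodes an epithelial adhesion protein, was at 0.518 FPKM in FGF2 and 1.19 FPKM in NC, and CDH1, which encodes E-cadherin, had 4 counts in FGF2 and 20 in NC. Of 6 fibroblast markers, COL1A1 was at 59.5 FPKM in FGF2 and 103.8 FPKM in NC, COL1A2 had 0 counts in both, COL3A1 had 6 counts in FGF2 library 2 and 137 in NC library 2, DCN and LUM had 0 counts in FGF2 and 8 and 12 in NC, and PDGFRA had 3 in FGF2 and 0 in NC. The 6 summed to 60.1 and 59.5 FPKM in the FGF2 libraries, against 101.7 and 104.7 FPKM in the NC libraries. The part of this difference in the lincRNA values was not tested. Blood and immune markers, 3 in all, summed to 0.384 and 0.884 FPKM in the FGF2 libraries and to 1.07 and 1.02 FPKM in the NC libraries, with CD3E at 0 counts in both libraries 2, and the 3 endothelial markers summed to at most 0.361 FPKM in each library. SPRY4, a feedback inhibitor of FGF signalling, had 1115 counts in FGF2 library 2, against 116 in NC library 2.

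LincRNAs are transcribed by RNA polymerase II and mostly spliced and polyadenylated like messenger RNAs, but they do not serve mainly as templates for protein. Some build nuclear bodies, such as NEAT1 in paraspeckles, some bind regulatory proteins, such as NORAD with the PUMILIO proteins, and some are the precursors of microRNAs, which are cut from the nuclear transcript by Drosha and pair with target messages through their seed. In tumours many lincRNAs are known from their association with growth, and several respond to mitogens or to stress.

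A total of 15 of the 109 genes overlap 29 microRNA genes annotated on their own strand. The mature sequences below are from RefSeq (GRCh38.p14), written 5′ to 3′, with the seed (bases 2 to 8) in capitals. They are shown because the spliced host transcript was counted here, while the mature microRNAs were not measured. The first set is held by the 3 hosts called higher by 1.5-fold. MIR222HG on chromosome X (45745211 to 45770274) holds MIR221 and MIR222, a pair known to target the cell-cycle inhibitor CDKN1B, and their 3p arms share 1 seed. MIR210HG on chromosome 11 (565660 to 568457) holds MIR210, known as a hypoxia-responsive microRNA, and MIR137HG on chromosome 1 (97933474 to 98049863) holds MIR137, known from neurons.
hsa-miR-221-3p: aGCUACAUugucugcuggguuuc
hsa-miR-222-3p: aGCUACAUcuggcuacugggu
hsa-miR-210-3p: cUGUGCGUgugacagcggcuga
hsa-miR-137-3p: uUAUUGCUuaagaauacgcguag

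The second set belongs to MIR503HG, the one host called lower by 1.5-fold, on chromosome X (134543337 to 134546632). The miR-503 arm lies within that gene, while MIR424 overlaps it only in part and the printed miR-424 arm (134546680 to 134546701) lies just before its start. Both microRNAs belong to the family of miR-16, known for lowering cyclins and other cell-cycle genes.
hsa-miR-503-5p: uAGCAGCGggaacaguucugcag
hsa-miR-424-5p: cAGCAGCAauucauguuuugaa

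The third set carries the let-7 seed, shared by a pair of hosts that met neither bound. MIRLET7BHG on chromosome 22 holds MIRLET7A3 and MIRLET7B, and AC048341.1 on chromosome 12 (now named MIRLET7IHG) holds MIRLET7I. Let-7 microRNAs are known to repress growth genes such as HMGA2 and RAS family members.
hsa-let-7a-5p: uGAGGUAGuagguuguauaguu
hsa-let-7b-5p: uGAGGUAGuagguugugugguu
hsa-let-7i-5p: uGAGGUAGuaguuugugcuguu

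The last pair is from hosts with little or weak change. MIR22HG on chromosome 17 holds MIR22, and CYTOR and MIR4435-2HG, duplicated genes on chromosome 2, hold MIR4435-1 and MIR4435-2 with 1 mature sequence.
hsa-miR-22-3p: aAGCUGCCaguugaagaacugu
hsa-miR-4435: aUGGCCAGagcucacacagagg

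Together the lincRNA transcripts made up a smaller share of the counts in FGF2 cells, and AL161431.1 alone accounted for most of that difference. They took 0.198% of the counts in FGF2 library 2 (exact binomial 95% interval 0.197 to 0.200%), against 0.222% in NC library 2 (0.221 to 0.224%), and the same rounded shares in library 1 of each group. Without AL161431.1 the shares were 0.181% in FGF2 library 2 (0.180 to 0.183%) and 0.191% in NC library 2 (0.190 to 0.193%). The median log2 fold change of FGF2 over NC was -0.148 over the 109 genes, with quartiles of -0.519 and 0.294, and 0.0282 over all 11000 genes with the same count minimum. Of the 109, 39 lay above 0 and 70 below. The range ran from -2.67 for AL590004.3 to 3.21 for LINC00973. The exact binomial interval of the ratio, which covers counting error only, lay above 0 for 28 genes, below 0 for 41 and held 0 for 40. These intervals are too narrow, since between the disjoint read sets of 1 group the chi-square per lincRNA gene was 2.41 ± 0.331 (SE) for FGF2 and 1.86 ± 0.227 for NC.

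**Figure D1:**
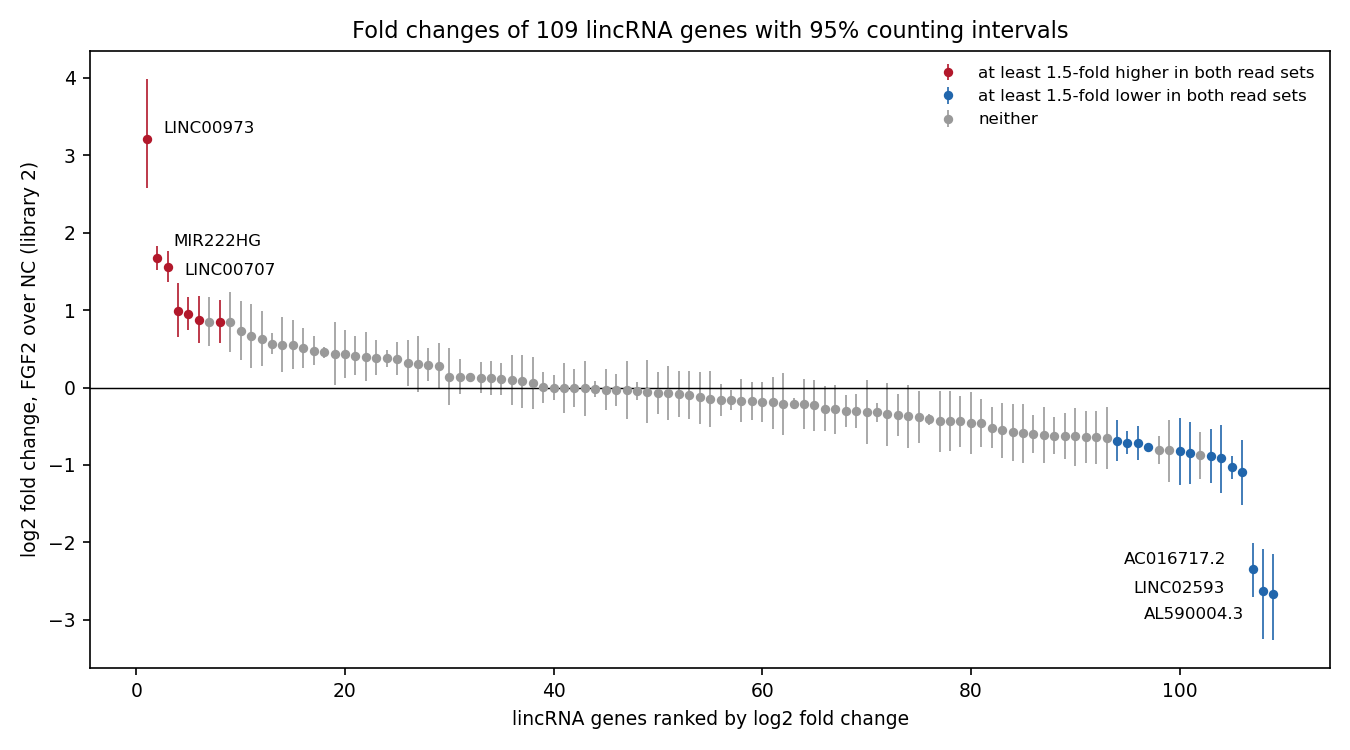
Log2 fold change of FGF2 over NC for each of the 109 lincRNA genes, ranked from highest to lowest. Points are library 2 ratios, bars are 95% counting intervals, red points are the 7 genes called higher and blue points the 13 called lower by 1.5-fold. LINC00973 stands apart at 3.21, and AC016717.2, LINC02593 and AL590004.3 lie between -2.34 and -2.67.

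By the 1.5-fold rule 7 of the 109 genes (6.42%) were higher, against 3.14% of the 11000 genes, and 13 (11.9%) were lower, against 5.17%. By the 1.2-fold rule 15 (13.8%) were higher, against 12.7% of all genes, and 30 (27.5%) were lower, against 13.4%. Scaling by total count alone, in place of TMM (trimmed mean of M values), gave 5 higher and 16 lower at 1.5-fold, with 264 higher and 718 lower over all 11000 genes, so that 23.8% of the calls among lincRNA genes and 26.9% of those among all genes were higher, against 35% and 37.8% with TMM. Most lincRNA genes of the set had 200 to 1000 counts, a range where more genes were called lower than over all genes. Within that range the lincRNA genes had a median of 331 counts, against 502 in the other genes, so the comparison below is not matched in counts. Among genes of 200 to 1000 counts, 10 of 92 lincRNA genes (10.9%) were lower by 1.5-fold and 9.51% of the 3093 other genes, while 5 (5.43%) were higher and 3.75% of the other genes. Their median log2 fold change was -0.154, against -0.0883 in the other genes of that range. At 1.2-fold 27.2% of the lincRNA genes of that range were lower and 20.8% of the other genes, and 10.9% and 9.96% were higher. These differences between gene types were not tested. Above 1000 counts, 2 of 17 lincRNA genes were higher and 3 were lower by 1.5-fold, against 2.85% and 3.36% of 7713 protein-coding genes. Antisense RNA genes had 2 higher and 8 lower of 117.

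**Figure D2:**
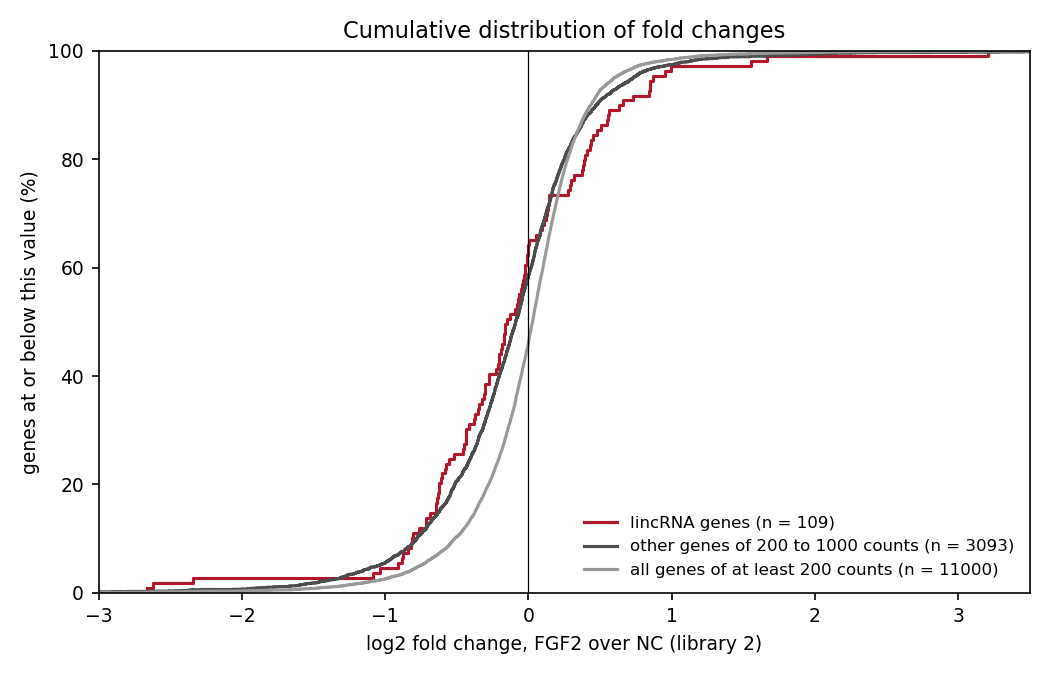
Cumulative share of genes (percent) at or below each log2 fold change of FGF2 over NC, for the 109 lincRNA genes (red), for the 3093 other genes of 200 to 1000 counts (dark grey) and for all 11000 genes of at least 200 counts (light grey). The lincRNA curve has its median at -0.148 and that of the other genes of 200 to 1000 counts at -0.0883, and both cross 0 at a higher share than all genes do (median 0.0282). The axis ends at -3 and 3.5, and a few genes lie beyond it.

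Per length, the set spanned 0.195 to 74.9 FPKM as the mean of both libraries 2, with a median of 2.48 FPKM, against 7.43 FPKM over all 11000 genes. A total of 13 lincRNA genes lay under 1 FPKM and 12 at 10 FPKM or more. NORAD, which guards chromosome number by binding PUMILIO proteins, stood highest, at 76.0 and 76.3 FPKM in the FGF2 libraries, against 73.7 and 73.6 FPKM in the NC libraries. AL161431.1 (LINC03061) came next, at 32.4 and 34.0 FPKM in the FGF2 libraries, against 62.5 and 61.3 FPKM in the NC libraries. AP001505.1 on chromosome 21 followed, at 33.4 and 29.3 FPKM in FGF2 and 25.5 and 23.8 FPKM in NC. PVT1, which lies beside MYC on chromosome 8, was at 27.0 and 27.0 FPKM in the FGF2 libraries and at 20.9 and 21.0 FPKM in the NC libraries. The next 6 by level were AC026401.3, MIR503HG, MALAT1, AC092171.2, MIR222HG and AC125807.2, with means between 11.9 and 17.1 FPKM. Of these, AC026401.3 (log2 fold change 0.0059), AC092171.2 (-0.05) and AC125807.2 (-0.32) met neither the 1.5-fold nor the 1.2-fold rule. In counts, which favour long transcripts, NORAD, AL161431.1, PVT1, MALAT1 and NEAT1 together held 47.4% of the reads of the set in FGF2 library 2 and 49.4% in NC library 2.

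LINC00973, on chromosome 3 (98981058 to 98983096), was the gene with the highest fold change. It had 89 and 180 counts in the FGF2 libraries, against 13 and 20 in the NC libraries, a 9.26-fold difference (log2 fold change 3.21, counting interval 2.57 to 3.99). The ratio was 2.85 in library 1 and 3.63 in the other reads of library 2, on the log2 scale. Its sum of 200 counts is exactly the minimum of the set, so its entry rested on its FGF2 level. The nearest coding gene, DCBLD2, lies 79369 bases away on the other strand and had 14304 counts in FGF2 library 2, against 6597 in NC library 2 (log2 fold change 1.19). That neighbour was looked up after the values were seen.

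MIR222HG had 681 and 1403 counts in the FGF2 libraries, against 250 and 464 in the NC libraries. Both FGF2 read sets lay above both NC read sets, and the log2 fold change was 1.67 (1.52 to 1.82), or 3.18-fold. Per length it stood at 17.7 and 18.3 FPKM in FGF2 and 6.38 and 6.10 FPKM in NC.

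LINC00707 and LINP1 are neighbours on chromosome 10, on the same strand and 39017 bases apart, and both were called higher. LINC00707, a transcript associated with tumour growth, had 406 and 801 counts in the FGF2 libraries, against 148 and 286 in the NC libraries (log2 fold change 1.56, 1.36 to 1.76). It shares 16.6% of its exon bases with other annotated genes, among them AL392086.2, so reads there may be split between genes or left uncounted. LINP1, known as a scaffold for the Ku proteins in the joining of broken DNA ends, had 282 and 516 counts for FGF2, against 128 and 280 for NC (0.95, 0.74 to 1.17). The log2 ratio of LINP1 was 1.26 in library 1 and 0.64 in the other reads, so its size was less even than that of LINC00707, at 1.57 and 1.53. Of the 5 pairs of genes in the set that lie within 100 kb of each other, this was the one pair with both called higher, and no pair was called lower together.

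The remaining genes called higher differed by less than 2-fold. MIR210HG had 99 and 207 counts in the FGF2 libraries, against 57 and 109 in the NC libraries (log2 fold change 0.99, 0.66 to 1.35). MIR137HG had 117 and 251 counts in FGF2 and 81 and 144 in NC (0.87, 0.57 to 1.18), with 6.89% of its exon bases shared with DPYD. AC083843.2, an unspliced transcript on chromosome 8, had 152 and 290 counts in FGF2 and 85 and 169 in NC (0.85, 0.57 to 1.13). With total count scaling LINP1 and MIR137HG no longer met the 1.5-fold rule.

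**Figure D3:**
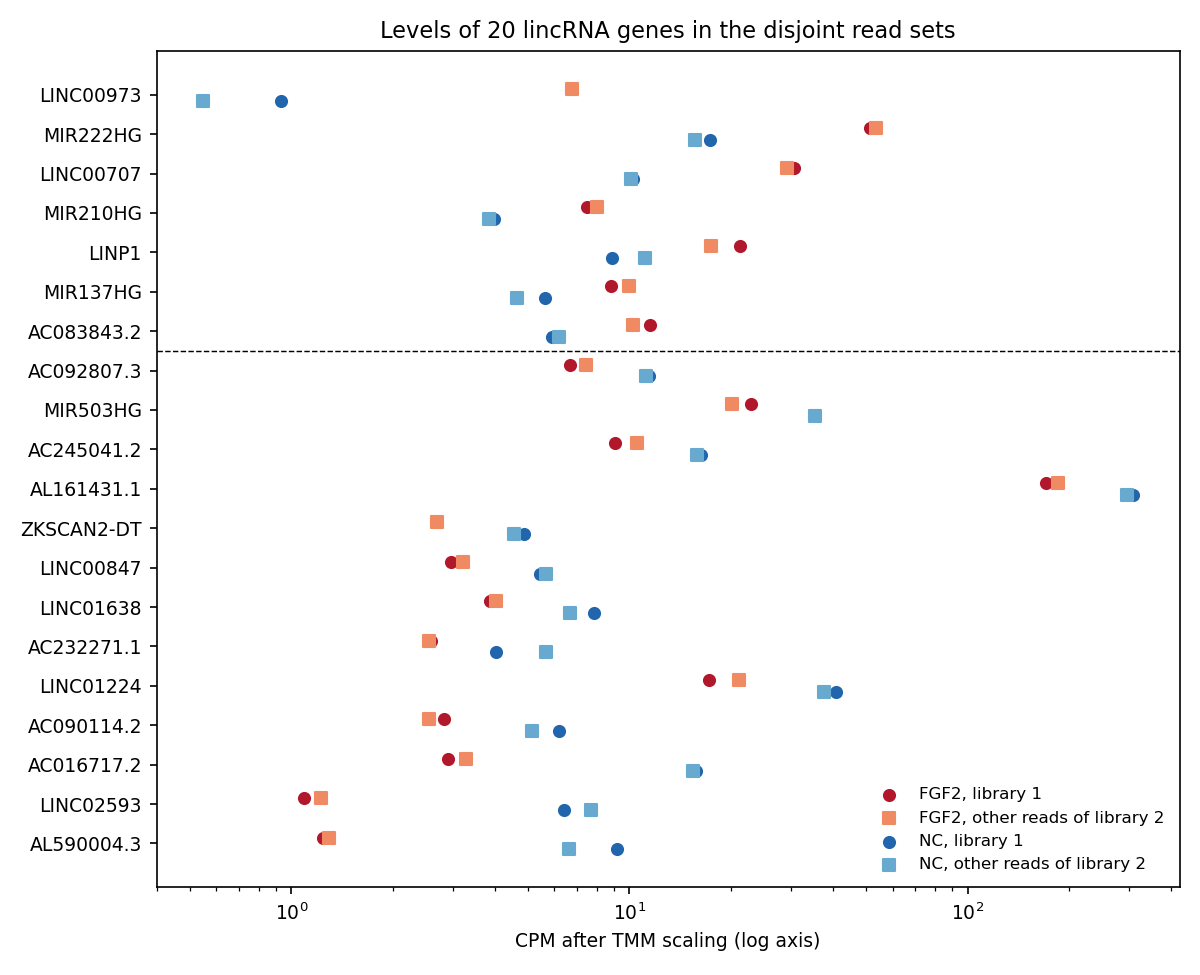
CPM (counts scaled to the library total) after TMM scaling, on a log axis, of the 20 lincRNA genes called by 1.5-fold in the disjoint read sets of FGF2 (red and orange, upper point of each row) and NC (blue, lower point). Genes above the dashed line were called higher and those under it lower. AL161431.1 is the most abundant, at 171.2 and 184.9 in FGF2, and LINC00973 reaches 6.74 and 6.78 in FGF2 in points that coincide.

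Among the 13 genes called lower, 3 stood apart from the rest, at more than 5-fold under their NC level. AL590004.3, on chromosome 6 (3904920 to 3911979), had 16 and 33 counts in the FGF2 libraries, against 133 and 223 in the NC libraries, a 6.35-fold lower level (log2 fold change -2.67, -3.26 to -2.15). LINC02593, on chromosome 1 (916865 to 921016), had 14 and 30 counts in the FGF2 libraries, against 92 and 197 in the NC libraries (-2.62, -3.25 to -2.08). AC016717.2, on chromosome 2 (225698514 to 225703654), had 38 and 82 counts in the FGF2 libraries, against 228 and 438 in the NC libraries (-2.34, a 5.06-fold lower level). Their counts in FGF2 cells were low, so the entry of these 3 genes into the set rested on their NC level. All 3 are annotated with a single exon block, and no function is given for them in the annotation used. Of the set, 42 genes have a single exon block, with a median log2 fold change of -0.24, 1 called higher and 6 called lower, while the 67 with several blocks had a median of -0.07, 6 higher and 7 lower. The difference between these groups of genes was not tested, and 3.14% and 5.17% of all genes were called higher and lower.

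Next in order came AC090114.2 (LINC03072), with 37 and 71 counts in the FGF2 libraries, against 89 and 159 in the NC libraries (log2 fold change -1.09, -1.52 to -0.68). LINC01224, which lies 3673 bases from the zinc-finger gene ZNF91 on chromosome 19, had 228 and 513 counts in FGF2 and 589 and 1104 in NC (-1.03, -1.19 to -0.88). ZNF91 itself had 442 counts in FGF2 library 2 and 478 in NC library 2 (-0.04). AL161431.1 was the most abundant gene called lower, and its interval was the narrowest of the 13. It had 2273 and 4769 counts in the FGF2 libraries, against 4475 and 8517 in the NC libraries, a 1.70-fold lower level (-0.76, -0.82 to -0.71).

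MIR503HG had 304 and 575 counts in the FGF2 libraries, against 507 and 991 in the NC libraries (log2 fold change -0.71, -0.86 to -0.56). The log2 fold changes of AC232271.1 (-0.91), LINC01638 (-0.88), LINC00847 (-0.84) and ZKSCAN2-DT (-0.82) rested on 68 to 105 counts in FGF2 library 2 and 132 to 204 in NC library 2. LINC00847 shares 21.0% of its exon bases, on the other strand, with HEIH. The last 2 of the 13, AC245041.2 (-0.71) and AC092807.3 (-0.68), lie outside the rule for named genes and are given to complete the count. AC092807.3 shares 10.6% of its exon bases with DDAH1, and AC245041.2 shares 64.5% of its 50-base words with other transcripts, mostly with ANXA8. ANXA8 had 20 counts in FGF2 library 2 and 38 in NC library 2.

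On a list of nuclear or structural RNAs, NEAT1 was lower and MEG3 higher at 1.2-fold, and NORAD, MALAT1 and FTX met neither bound. The list held 14 names, of which 5 were in the set, and 1 of the 5 was higher and 1 lower at 1.2-fold, where 12.7% and 13.4% of all genes were. Their median log2 fold change was -0.21. NEAT1, known from paraspeckles, had 1385 and 2725 counts in the FGF2 libraries, against 1849 and 3814 in the NC libraries (-0.41, -0.48 to -0.34), and was the one called lower. NEAT1 was counted as 1 exon block of 22767 bases, so its shorter and longer transcripts were not told apart. MALAT1, which lies 52148 bases from NEAT1 on the same strand of chromosome 11 and collects in nuclear speckles, had 1664 and 3115 counts in FGF2 and 1902 and 3783 in NC (-0.21, -0.28 to -0.14). The MALAT1 ratio differed between the read sets, at -0.07 in library 1 and -0.35 in the others. Its stable transcript ends in a triple helix and not in a poly(A) tail, so polyadenylated RNA samples it incompletely. NORAD had 5597 and 11245 counts in FGF2, against 5540 and 10735 in NC (0.14, 0.10 to 0.18). FTX, a transcript of the X-inactivation region, was at -0.30. It shares 41.9% of its exon bases, on the other strand, with other genes, among them JPX, so reads there may mix. JPX had 9 counts in FGF2 library 2 and 5 in NC library 2. MEG3, an imprinted RNA of chromosome 14 known as a growth suppressor, was the one called higher at 1.2-fold, with 84 and 157 counts in FGF2 and 40 and 92 in NC (0.84, 0.46 to 1.23), and it was the lowest of the set per length at 0.195 FPKM. Of the names on the list that are annotated as other gene types, OIP5-AS1 (-0.35) was lower at 1.2-fold, and TUG1 (-0.01) and KCNQ1OT1 (-0.23) met neither bound.

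The lincRNAs of the set that are on a list of growth or cancer names were mostly higher in FGF2 cells. Those called higher ran from 1.30-fold for MIR4435-2HG to 2.94-fold for LINC00707. The list does not hold every lincRNA associated with cancer, and H19 of the list, annotated as another gene type, was lower (log2 fold change -2.07). Of the 7 in the set, 6 were higher and 0 lower at 1.2-fold, where 12.7% and 13.4% of all genes were. At 1.5-fold 1, LINC00707, was higher and 0 were lower, where 3.14% and 5.17% of all genes were, with a median log2 fold change of 0.48, against 0.0282 over all genes. The list and the set were chosen with earlier results of these data known, so this count is a description. UCA1, first known from urothelial cancer, had 98 and 225 counts in the FGF2 libraries, against 60 and 131 in the NC libraries (0.85, 0.54 to 1.17). CYTOR, known from regulation of the cytoskeleton and cell migration, had 588 and 1135 counts in FGF2 and 451 and 806 in NC (0.57, 0.43 to 0.70). MIR4435-2HG, its duplicate, had 741 and 1563 counts in FGF2 and 636 and 1264 in NC (0.38, 0.27 to 0.49). CYTOR and MIR4435-2HG are not independent measurements, since 16.0% of the 50-base words of CYTOR and 21.6% of those of MIR4435-2HG occur in the other.

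PVT1 had 2042 and 4100 counts in the FGF2 libraries, against 1612 and 3150 in the NC libraries (log2 fold change 0.45, 0.39 to 0.52). MYC, 53099 bases from PVT1 on the same strand, had 11284 counts in FGF2 library 2 and 10925 in NC library 2 (0.12). LINC00665, which encodes a small peptide that binds CIP2A, had 242 and 522 counts in FGF2, against 217 and 394 in NC (0.48, 0.29 to 0.67), and it was the single gene of the set on the list of small-protein genes. BRD3OS, MTLN, NBDY and SMIM30 of that list are annotated as protein-coding and met neither bound. LINC00662, the seventh of the list, was at -0.07. Of the 43 names on the growth list, 39 gene rows were in the tables and 11 reached the count minimum. Among the 4 of other gene types LINC00511 (0.80) and LUCAT1 (0.71) were higher at 1.2-fold, HEIH (-0.03) met neither bound, and H19, an imprinted RNA that carries MIR675, was lower at 1.5-fold with 43 counts in FGF2 library 2 and 191 in NC library 2 (-2.07). Of the p53 and stress list, 4 were in the set, and NORAD and MIR22HG met neither bound. MIR210HG was higher and NEAT1 lower at 1.2-fold, where 12.7% and 13.4% of all genes were. LUCAT1, also on that list but annotated as another gene type, was higher at 1.2-fold.

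Host transcripts of microRNAs differed in both directions. Of the 15 that overlap microRNA genes, 7 were higher and 2, NEAT1 and MIR503HG, lower at 1.2-fold, where 12.7% and 13.4% of all genes were. At 1.5-fold 3 were higher and 1 was lower, where 3.14% and 5.17% of all genes were, and the median log2 fold change was 0.43. Of the 8 on the list of hosts by name, 5 were higher and 1 lower at 1.2-fold, with a median of 0.56. H19 and DLEU2, named on that list but annotated as other gene types, were at -2.07 (lower by 1.5-fold) and -0.09 (neither bound). MIRLET7BHG, host of the let-7a and let-7b precursors printed above, had 131 and 205 counts in the FGF2 libraries, against 71 and 147 in the NC libraries (0.55, 0.24 to 0.87). Its log2 ratio was 1.00 in library 1 and -0.02 in the other reads of library 2, so the read sets disagreed and it met neither bound. The other let-7 host, AC048341.1, which is not among the names of the list, was at -0.58 (-0.97 to -0.21) and also met neither bound. MIR22HG had 258 and 604 counts in FGF2 and 324 and 636 in NC (-0.0023, -0.17 to 0.16). For the miR-221 and miR-222 pair the host was 3.18-fold higher. MIR503HG, which holds the miR-503 arm and overlaps the MIR424 gene only in part, was 1.64-fold lower. The mature forms of these microRNAs were not measured.

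**Figure D4:**
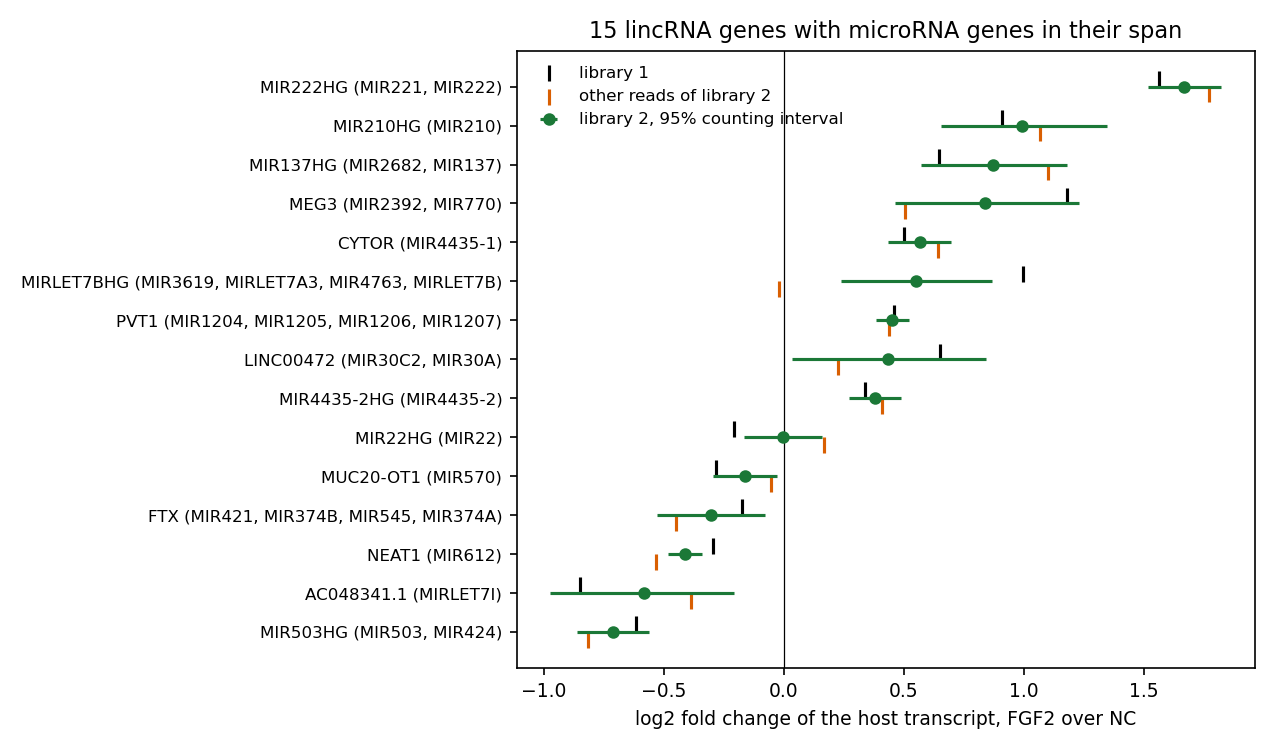
Log2 fold change of FGF2 over NC for the 15 lincRNA genes that overlap microRNA genes on their own strand, with those microRNA genes in brackets. Green points and bars are library 2 ratios with 95% counting intervals, and ticks are library 1 (black) and the other reads of library 2 (orange). MIR222HG lies highest at 1.67 and MIR503HG lowest at -0.71, and the ticks of MIRLET7BHG lie far apart, at 1.00 and -0.02.

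Many lincRNA genes start beside a coding gene on the other strand, where both may share a promoter region. A total of 31 of the 109 start within 1 kb of such a gene. Of these, 0 were higher and 1 was lower by 1.5-fold, and 0 and 8 by 1.2-fold. Among the other 78, 7 were higher and 12 lower by 1.5-fold, and 15 and 22 by 1.2-fold. Over all 11000 genes 3.14% were higher and 5.17% lower by 1.5-fold, and 12.7% and 13.4% by 1.2-fold. The difference between the 31 and the 78 was not tested. The one of the 31 called lower by 1.5-fold was ZKSCAN2-DT, with 35 and 71 counts for FGF2, against 70 and 132 for NC. ZKSCAN2, which starts beside it, had 389 counts in FGF2 library 2 and 352 in NC library 2 (log2 fold change 0.22). AC019069.1 (HK2-DT) was singled out after its values were seen. It was at 0.32, while HK2, which encodes the glycolytic enzyme hexokinase 2, was at 1.21, with 7262 counts in FGF2 library 2 and 3310 in NC library 2.

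Over the 51 genes with a measured coding gene within 5 kb, 34 had the sign of that neighbour. Pearson's r between lincRNA and neighbour log2 fold changes was 0.63 and Spearman's rho 0.36, across genes that share the same libraries. Without LINC02593 r was 0.33 and rho 0.32. Its neighbour SAMD11, 2912 bases away on the other strand, had 36 and 60 counts in the FGF2 libraries, against 222 and 475 in the NC libraries (log2 fold change -2.90), and it was the one pair called the same way among 7 such lincRNA genes called by 1.5-fold. MIR210HG and RASSF7, 1639 bases apart on opposite strands, had opposite signs, with RASSF7 at 1416 counts in FGF2 library 2 and 2244 in NC library 2 (-0.59). Over the 46 such pairs with under 10% shared exon bases, again without LINC02593, r was 0.31 and rho 0.32.

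**Figure D5:**
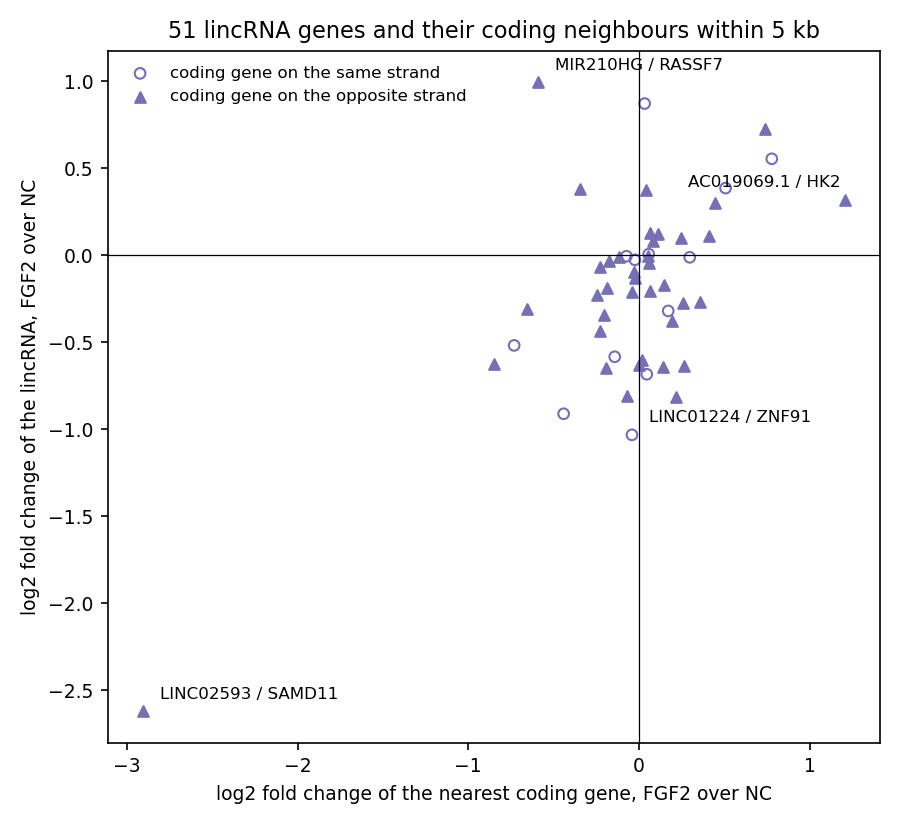
Log2 fold change of FGF2 over NC for 51 lincRNA genes (vertical axis) and for the nearest coding gene within 5 kb (horizontal axis). Filled triangles are neighbours on the opposite strand and open circles neighbours on the same strand. LINC02593 and SAMD11 lie apart at -2.62 and -2.90, and most other pairs lie near 0.

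Promoter windows were read for the 63 genes of the set that match a RefSeq entry by symbol, each 250 bases before to 50 after the RefSeq start (GRCh38.p14). Motif letters were counted on both strands, and no motif overlaps another in its letters. The AP-1 letters TGACTCA or TGAGTCA were in 4 of the 63 windows (6.35%), against 4.92% of 27305 RefSeq promoters. The CYTOR and MIR4435-2HG windows, both among the 4, come from duplicated sequence and share an identical stretch of 241 bases. The CRE letters TGACGTCA were in 3 (4.76%, against 1.98%), the E-box letters CACGTG in 5 (7.94%, against 7.43%) and the ETS letters CCGGAAGT in 3 (4.76%, against 4.44%). None of the 5 matched genes called higher by 1.5-fold, nor of the 5 called lower, held any of these letters. For LINC00973 and LINP1 the RefSeq start lies 66492 and 27852 bases from the GENCODE v29 start, so these windows are not at the start of the gene model that was counted. In all, 13 of the 63 windows belong to a RefSeq start more than 250 bases from the GENCODE start, among them those of LINC02593 (1324 bases), MEG3 (46698 bases, with the CRE letters) and MIR4435-2HG (28215 bases, with the AP-1 letters). CYTOR and LINC00346 are shown because each holds the AP-1 letters in duplicate, although their transcripts differed in direction. CYTOR was higher at 1.2-fold, and LINC00346, named here after its values were seen, was lower at 1.2-fold, with 53 and 140 counts for FGF2, against 145 and 270 for NC (log2 fold change -0.87). In capitals are the AP-1 letters, which begin 19 and 9 bases before the start of CYTOR at chr2:87455177-87455476 (plus strand) and 98 and 42 bases before that of LINC00346 at chr13:110870259-110870558 (minus strand). The RefSeq start of CYTOR lies 646 bases from that of GENCODE v29 and that of LINC00346 57 bases.
CYTOR: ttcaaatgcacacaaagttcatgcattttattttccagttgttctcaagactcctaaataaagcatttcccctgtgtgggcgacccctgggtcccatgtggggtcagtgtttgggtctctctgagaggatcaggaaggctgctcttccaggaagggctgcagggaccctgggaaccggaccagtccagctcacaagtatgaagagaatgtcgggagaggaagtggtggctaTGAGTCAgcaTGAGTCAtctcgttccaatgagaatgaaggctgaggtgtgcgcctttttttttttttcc
LINC00346: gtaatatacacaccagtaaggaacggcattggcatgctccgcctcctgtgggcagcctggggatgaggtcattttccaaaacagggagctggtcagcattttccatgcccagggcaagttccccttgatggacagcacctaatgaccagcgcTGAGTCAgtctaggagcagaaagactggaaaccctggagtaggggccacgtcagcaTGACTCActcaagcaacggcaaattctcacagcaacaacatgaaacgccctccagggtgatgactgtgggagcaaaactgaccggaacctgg

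The window of MIR503HG at chrX:134546581-134546880 (minus strand) is shown because it holds the miR-424 precursor, whose first mature base lies 71 bases before the RefSeq start. In capitals is the DNA of hsa-miR-424-5p. In GENCODE v29 the gene starts 2 bases from the RefSeq start, inside the annotated MIR424 gene, so MIR503HG and MIR424 overlap only in part.
MIR503HG: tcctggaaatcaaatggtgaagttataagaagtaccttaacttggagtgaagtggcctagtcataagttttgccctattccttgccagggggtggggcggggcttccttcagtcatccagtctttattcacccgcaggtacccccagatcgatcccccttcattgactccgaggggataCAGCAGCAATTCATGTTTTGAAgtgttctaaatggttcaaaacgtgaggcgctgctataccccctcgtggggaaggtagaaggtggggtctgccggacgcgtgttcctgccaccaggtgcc

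The members just inside the count minimum were AC022034.1 with 208 counts, AC144652.1, ZKSCAN2-DT and AC232271.1 with 203 each, and LINC00973 with 200. Just outside were AC145207.5 and RASAL2-AS1 with 198, AC012531.1 with 190 and PSMG3-AS1 and LINC01521 with 189. Their log2 fold changes ran from -0.72 for PSMG3-AS1 to -0.16 for AC145207.5.

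A total of 64 genes met neither the 1.2-fold nor the 1.5-fold rule, with log2 fold changes between -0.58 and 0.73. Across the 109, the log2 fold change in library 1 and that in the other reads of library 2 had a Pearson's r of 0.86 and a Spearman's rho of 0.76, and 24 genes differed in sign between these read sets. Fold change had almost no relation to mean FPKM (rho 0.0065) or to exon length (rho 0.11) across the same genes. LINC01106 and LINC01123 share 87.5% and 68.8% of their 50-base words with each other, so their counts (log2 fold changes 0.63 and -0.05) cannot be told apart with certainty.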

How the data were processed

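Each library had 1 table with raw read counts per gene and FPKM values, both deposited by the authors. HISAT2, HTSeq 0.13.5 and GRCh38 are named in the submitters' processing notes, with no role given. All 51103 gene IDs are in GENCODE v29, from which coordinates and exon lengths were taken, and the length implied by the deposited counts and FPKM equalled that release for 108 of the 109 lincRNA genes.

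Read sets were scaled by TMM in edgeR 4.0.16 (R 4.3.3) over 15030 genes kept by filterByExpr. Log2 fold changes are ratios of library 2 counts with 0.5 added, with exact Clopper-Pearson 95% intervals, which cover counting error only. The size rule was run on simulated data with 200 changed genes. The simulation held no variation between cultures, so it cannot show how often unchanged genes would be called between separate cultures. DESeq2 1.42.0 and limma 3.58.1 gave alternatives. Sequence sharing was measured as 50-base words of GENCODE v29 transcripts found in transcripts of another gene. The labels name no separate cultures for the libraries.

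The members, the gene lists and the size rule were chosen with earlier results of these data known. Named genes were the called genes with the 10 highest and 10 lowest fold changes, the 10 highest by FPKM, members of the lists, MIR host genes, genes within 5 places of the count minimum, and coding neighbours within 5 kb. A marker gene of the lists is not reported here.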

Additional observations from a re-analysis of the deposited data

How the results depend on the processing

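With n = 1 per group no setting gives a test of the conditions, and counting depth limits what can be seen at the 92 genes of 200 to 1000 counts. The 7 higher and 13 lower genes were all kept with DESeq2 size factors. Total count scaling gave 5 higher and 16 lower, losing LINP1 and MIR137HG and adding AP003392.4, BAIAP2-DT and FLVCR1-DT, and it put the median log2 fold change at -0.234. The 1.2-fold bound gave 15 and 30, and the 2-fold bound 3 and 3. A minimum of 400 counts (50 genes) gave 4 and 6, with a median of -0.0405, and 100 counts (189 genes) gave 10 and 18. Without genes sharing any exon sequence (69 left) there were 4 and 10, with a median of -0.21. Leaving out 1 library gave 9 to 11 higher and 15 to 20 lower, with medians of -0.157 to -0.141 (a setting that drops conditions of the rule, so the 7 and 13 stay among them by construction). The 11 higher came without FGF2 library 1 and the 20 lower without FGF2 library 2.

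Alternatives chosen after seeing the data were 1 read set per group. Library 1 alone gave 11 and 24 with a median of -0.122, library 2 less library 1 gave 15 and 26, and library 2 alone gave 12 and 24. Tests with 2 libraries a group take libraries that share reads as separate, so their adjusted p-values do not apply to the conditions. edgeR's quasi-likelihood test gave 29 higher and 44 lower (39.7% of calls higher, against 54.6% over all genes, with 4115 higher and 3422 lower), with the replicate block 29 and 44, and with no filter 29 and 41. DESeq2 gave 19 and 29. limma gave 26 and 51 with a median of -0.128 on log2(FPKM + 1), and 25 and 50 with a median of -0.224 on log2(FPKM + 0.1). The cause of these differences was not tested. Same-numbered libraries did not deviate together (r = -0.0122 over 15030 genes). Since library 2 appears to contain library 1, this value cannot show whether libraries of the same number share a batch. For single genes, total count scaling moved 5 of 109 log2 fold changes outside their counting interval, leaving out FGF2 library 2 moved 12 and leaving out NC library 2 moved 1, and no called value changed sign.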

Other observations

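Of the 5 lincRNA genes left out by name, SNHG18 had 80 and 136 counts in the FGF2 libraries, against 219 and 439 in the NC libraries (log2 fold change -1.61), and was lower by 1.5-fold. The other 4 met neither direction of that bound, with SNHG8 at 0.48, SNHG15 at 0.42, SNHG4 at 0.35 and SNHG19 at -0.42. Those genes host small nucleolar RNAs, which guide modification of ribosomal RNA and were not measured here.

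Of the 66 genes with a symbol in the deposited tables, 6 were higher and 6 lower by 1.5-fold, with a median log2 fold change of -0.11, and of the 43 named there by a sequenced clone 1 and 7 were, with a median of -0.19. As shares these calls came to 9.09% and 9.09% for symbols and to 2.33% and 16.3% for clone names. Among all 11000 genes the same rule called 3.14% and 5.17%. The difference between the 66 and the 43 genes was not tested. Counts above 0 were seen for 1312 and 1635 lincRNA genes in the FGF2 libraries, against 1449 and 1746 in the NC libraries, at similar depths.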
